A study of Mus musculus with 2 samples.

Results

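The integrated stress response genes described here are 10 genes around the transcription factor ATF4: Atf4, Atf3, Atf5, Ddit3, Ddit4, Trib3, Chac1, Asns, Sesn2 and Gdf15. They were chosen by name as ATF4 and well-known genes of its pathway, and were looked up in the deposited tables by Ensembl identifier, as the tables carry no symbols. Of the 10 genes, 7 were listed among the 12530 mouse genes of both tables. Atf3 (ENSMUSG00000026628), Trib3 (ENSMUSG00000032715) and Gdf15 (ENSMUSG00000038508) were listed in neither.

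The tables come from ribosome profiling, which sequences the mRNA fragments that ribosomes protect from RNase I. The tissue was whole spinal cord of wild-type mice and of mice heterozygous for Gars C201R, a missense allele of the gene for glycyl-tRNA synthetase. Each genotype has 1 library, which stands for 3 animals whose lysates were pooled. The labels used here state no age, sex or strain, and pooling leaves no spread between animals. The series asked how ribosomes occupy glycine codons in mutant tissue, but the tables hold 1 read total per gene.

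The integrated stress response starts when a kinase phosphorylates the initiation factor eIF2. General initiation then slows, while mRNAs with short upstream reading frames, such as those of Atf4, Atf5 and Ddit3, are translated more. ATF4 protein in turn raises transcription of genes for amino acid supply, redox balance and growth restraint. The kinase GCN2, which is activated by uncharged tRNA and by stalled ribosomes, ties the pathway to tRNA synthetase disease. In mouse models of Gars neuropathy the response has been described mainly in motor neurons and some sensory neurons. Motor neurons are a small part of the cells of a spinal cord.

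Gene reads summed to 7770935 for wild-type and 3491159 for Gars C201R/+, so the wild-type library was 2.23-fold deeper. Library sizes were therefore scaled with TMM (a scaling that assumes most genes are unchanged). The 18 ERCC spike-ins, synthetic control RNAs, were left out. They were 97.8-fold higher in the Gars C201R/+ library per gene read, so every direction given here is relative to the gene reads. Ribosome occupancy and mRNA amount cannot be told apart, because the series as used here holds no RNA library. In bulk tissue, fewer cells of a type and less RNA per cell cannot be told apart either. The lowest listed RPKM (reads per length of the gene and per total of the library) was 0.183 for wild-type and 0.501 for Gars C201R/+, and every listed row had at least 1 read in each. Levels of Atf3, Trib3 and Gdf15 are therefore not analysed here, and their absence from the tables is not a measurement of 0. Markers of spinal cord cell types, Gars and 5 further lists of pathway genes were not analysed here, because the tables pair no identifier with a symbol.

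With 1 library per genotype there is no replicate check and no test between genotypes. Intervals are 95% counting intervals that compare these 2 libraries, and they leave out variation between animals and libraries. A gene with at least 100 reads over both libraries was called higher or lower where the difference reached 1.5-fold and the interval left out a ratio of 1. All 7 listed genes had 100 or more reads.

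The listed stress response genes showed no common shift between these 2 libraries. By the calling rule 1 of the 7 was higher in the Gars C201R/+ library (Atf5), 1 was lower (Ddit3) and 5 were not called. Over all 9726 genes with 100 or more reads, 8.14% were called higher and 11.2% lower, 19.3% in either direction. The balance of the directions depended on the scaling, with 792 genes higher and 1087 lower under TMM, but 952 and 919 under total gene reads. The 2 calls are 28.6% of the 7 genes. Calls were more frequent among genes with few reads, where Atf5 and Ddit3 lie. Genes were put in 10 groups by their reads, and 37.6% were called in the group with 100 to 145 reads (Ddit3, Chac1) and 32.1% in the group with 146 to 196 (Atf5). The share called among the stress response genes is thus near the background and is not a result about them as a set. Under TMM 6 of the 7 log2 ratios were below 0, among them Asns at -0.02 and Ddit4 at -0.04, and that of Atf5 was above. The median log2 ratio of the 7 genes was -0.07, against -0.034 for all genes with 100 or more reads. Added up, the 7 genes took 0.0406% of gene reads for wild-type and 0.0402% for Gars C201R/+, shares of the total without TMM. With TMM scaling the log2 ratio of the summed reads was -0.07 (-0.16 to 0.02). Asns alone gave 42.0% of these summed reads in the wild-type and 43.4% in the Gars C201R/+ library.

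**Figure D1:**
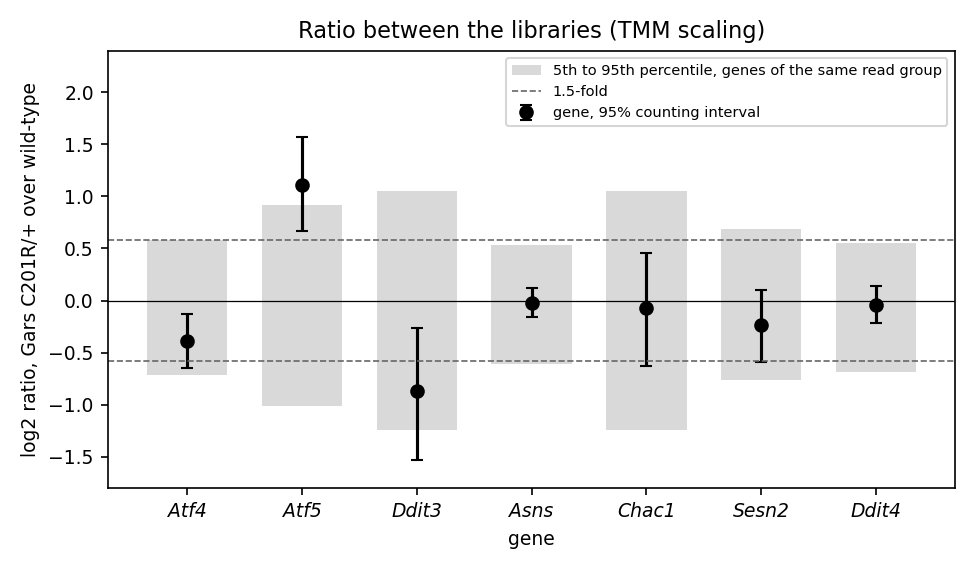
Log2 ratio of the Gars C201R/+ over the wild-type library for the 7 listed genes, 1 library each. Points are TMM-scaled ratios with 95% counting intervals, grey bars span the 5th to 95th percentile of all genes in the same group by reads, and dashed lines mark 1.5-fold. Atf5 at 1.11 lies above its grey bar, and the other 6 genes lie within theirs.

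Of the 3 listed transcription factors, Atf5 was called higher, Ddit3 was called lower and Atf4 was not called. Atf4 (ENSMUSG00000042406), the bZIP factor at the centre of the response, was covered by 472 wild-type reads (430.4 to 517, an exact Poisson interval) and by 168 reads (144 to 195) in the Gars C201R/+ library. The wild-type level scaled to the depth of the Gars C201R/+ library would be 220.1 reads, so Atf4 was lower there. The ratio was 0.764 (0.636 to 0.912), or -0.39 on the log2 scale (-0.65 to -0.13). Counting error alone does not span equal levels, but the fold is under the 1.5-fold limit and Atf4 was not called. The difference is also inside the range of other genes. In its group of 967 genes with 603 to 819 reads, 188 genes had a lower ratio than Atf4, and the log2 ratios of that group had a robust SD of 0.39, against 0.12 from counting error.

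Atf5 (ENSMUSG00000038539), a related bZIP factor whose mRNA also carries upstream reading frames, ran the other way. Its reads numbered 85 (67.9 to 105) for wild-type and 86 (68.8 to 106) for Gars C201R/+, nearly the same number in spite of the lower depth of the latter, where an equal level would give 39.6 reads. The ratio was 2.16 (1.59 to 2.96), a log2 ratio of 1.11 (0.67 to 1.57). Of the 957 genes with 146 to 196 reads, 20 had a higher ratio. Among all 9726 genes with 100 or more reads, 98.9% had a lower ratio than Atf5. Its RPKM as deposited was 6.01 for wild-type and 13.5 for Gars C201R/+, which moved Atf5 from below the median gene (8.40 RPKM) to above it (8.63 RPKM). Its place among the 12530 genes went from 7468 to 4671, counted from the highest RPKM.

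Ddit3 (ENSMUSG00000025408) encodes CHOP, a bZIP partner of ATF4 that promotes cell death under lasting stress. Wild-type reads were 110 (90.4 to 133) and Gars C201R/+ reads 28 (18.6 to 40.5), against 51.3 reads at an equal level. The ratio was 0.549 (0.347 to 0.833), a log2 ratio of -0.87 (-1.53 to -0.26), and Ddit3 was called lower. This ratio is not unusual for so few reads. In the group of 995 genes with 100 to 145 reads, 110 genes had a lower ratio, and the robust SD of that group was 0.68, against 0.28 from counting error. The call was lost when the wild-type library was thinned to the depth of the Gars C201R/+ one (log2 ratio -0.63, interval -1.38 to 0.09), where Ddit3 also fell under the read minimum, and with a 2-fold limit.

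The 2 called genes are also the 2 of the 7 whose span overlaps other genes in RefSeq. The share of all genes with such an overlap is not given here. Atf5 lies at chr7:44812256-44816658 on the minus strand (GRCm38.p6). Nup62 and Il4i1b on the plus strand overlap 571 and 289 bp of it, 13.0% and 6.56% of its span, the shorter stretch inside the longer. Ddit3 lies at chr10:127290793-127296291 on the plus strand. Mbd6 and Mars1 on the minus strand overlap 77 and 71 bp at its ends, 1.40% and 1.29% of its span. Whether reads were counted by strand is not stated in the sources used here, and the part of shared reads in either ratio was not tested. The other 5 listed genes overlap no other gene of that annotation.

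**Figure D2:**
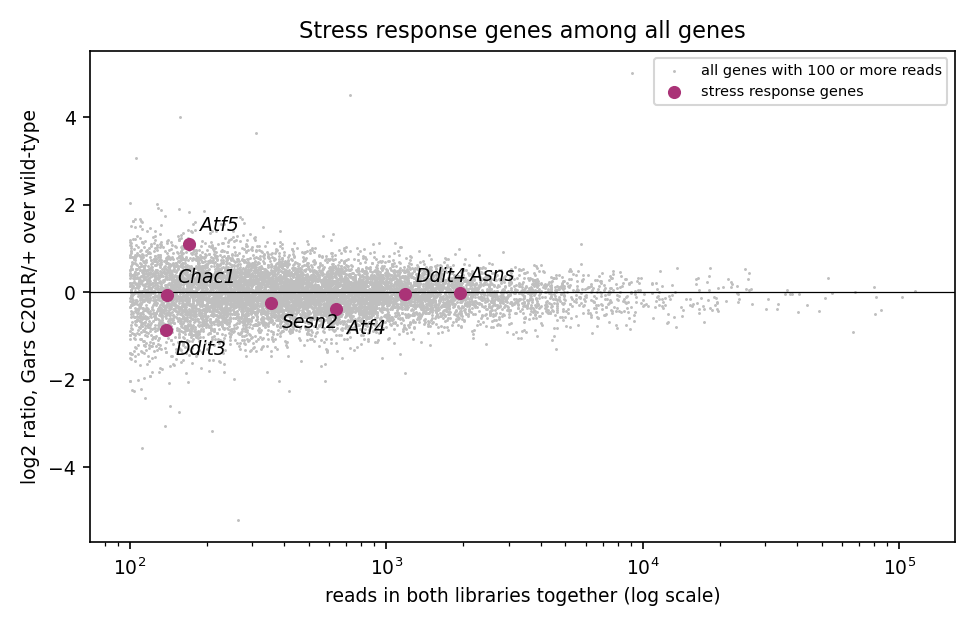
Log2 ratio (Gars C201R/+ over wild-type, TMM-scaled) against reads in both libraries together (log axis) for the 9726 genes with 100 or more reads, with the 7 stress response genes in purple. The cloud widens towards few reads, where Atf5, Ddit3 and Chac1 lie at 171, 138 and 140 reads, and Ddit4 and Asns lie near 0.

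Neither of the listed targets for amino acid supply and redox balance was called, and Asns was close to equal. Asns (ENSMUSG00000029752), asparagine synthetase, is a textbook ATF4 target and had the most reads of the 7 genes, with 1325 (1255 to 1398) in the wild-type and 609 (562 to 659) in the Gars C201R/+ library, against 618 reads at an equal level. The ratio was 0.986 (0.894 to 1.09). Chac1 (ENSMUSG00000027313), which breaks down glutathione and is among the most inducible ATF4 targets, had 97 reads (78.7 to 118) in the wild-type and 43 reads (31.1 to 57.9) in the Gars C201R/+ library. Equal levels would give 45.2 reads, and the ratio was 0.951 (0.648 to 1.37), a log2 ratio of -0.07, or -0.27 (-0.89 to 0.35) with the wild-type library thinned. For Asns the interval lies within 1.5-fold on either side. For Chac1 it does not, so at this depth the counts leave room for a 1.5-fold decrease of Chac1.

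The 2 genes that restrain the growth kinase complex mTORC1 were not called either. Ddit4 (ENSMUSG00000020108, REDD1), which responds to several stresses besides this one, had 812 reads (757 to 869.8) in the wild-type and 369 reads (332 to 409) in the Gars C201R/+ library, a ratio of 0.975 (0.859 to 1.10). Sesn2 (ENSMUSG00000028893), a leucine-sensing sestrin, had 256 reads (226 to 289) in the wild-type and 101 reads (82.3 to 123) in the Gars C201R/+ library. Its ratio was 0.847 (0.665 to 1.07). The interval of Ddit4 lies within 1.5-fold, while that of Sesn2 reaches just past it on the lower side. Asns and Ddit4 were thus the 2 genes for which counting error leaves no room for a 1.5-fold difference between these libraries. The share of all genes with such intervals was not computed. Genes of like read numbers also varied by more than counting error. Their log2 ratios had a robust SD of 0.34 for the group of Asns, against 0.08 from counting error. For the group of Ddit4 these were 0.37 and 0.10. The ratios of Asns and Ddit4 are so near 1 that the sign depended on the scaling. Between TMM, total gene reads, DESeq2 size factors and upper quartile, the log2 ratio lay between -0.02 and 0.03 for Asns and between -0.04 and 0.02 for Ddit4.

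A comparison of the genes with each other needs no scaling, since the depth of a library cancels within it. For each of the 21 pairs of the 7 genes, the ratio of their reads in the Gars C201R/+ library was divided by the same ratio in the wild-type library, with an exact conditional interval. At 95% the interval excluded equality for 10 pairs, and at a level of 99.76%, which allows for 21 pairs, for 6. These 6 were the 6 pairs that hold Atf5. They share the reads of Atf5, so they restate its ratio and are not separate results. The share of pairs of all genes past these limits was not computed. Atf5 was 2.84-fold higher relative to Atf4 (1.98 to 4.08 at 95%) and 3.96-fold higher relative to Ddit3 (2.32 to 6.89). Relative to Asns it was 2.20-fold higher (1.59 to 3.05). The 4 other pairs at 95% set Atf4 or Ddit3 below Asns or Ddit4. Atf4 to Asns was 0.774 (0.630 to 0.950), and Ddit3 to Asns was 0.554 (0.348 to 0.856). Ddit3 and Atf4 could not be told apart, with a ratio of Atf4 to Ddit3 of 1.40 (0.879 to 2.28). Ddit4 and Asns kept nearly the same proportion, at 0.989 (0.843 to 1.16). These intervals, too, cover counting error only, and genes of like read numbers vary by more than that.

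**Figure D3:**
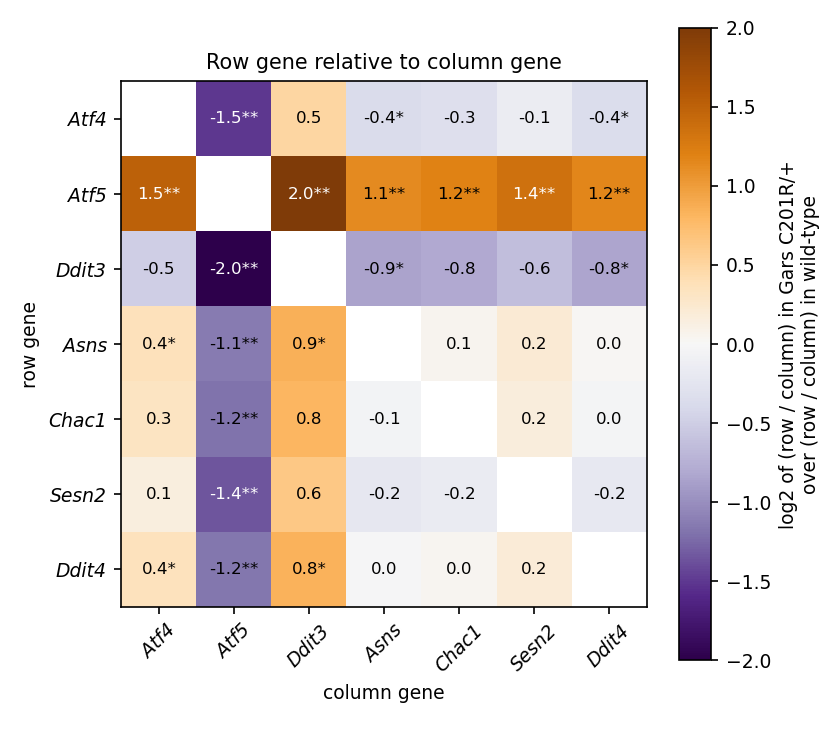
Each cell gives the log2 of the row gene relative to the column gene in the Gars C201R/+ library over the same in the wild-type library. A star marks a 95% counting interval that excludes equality, and 2 stars one that does so at 99.76%. The row of Atf5 is positive against all 6 other genes, with 2 stars in each cell, and these cells share the reads of Atf5.

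Levels of different genes were compared per length, as deposited RPKM. The lengths that the authors used were recovered from the ratio of reads to RPKM and ran from 890 nt for Ddit3 to 3475 nt for Sesn2. In the wild-type library Asns was highest at 85.0 RPKM (80.5 to 89.7), above 93.9% of genes. Ddit4 followed at 59.4 (55.4 to 63.6) and Atf4 at 35.1 (32.0 to 38.4). Then came Ddit3 at 15.9 (13.0 to 19.1), Sesn2 at 9.46 (8.33 to 10.7), Chac1 at 7.61 (6.17 to 9.28) and Atf5 at 6.01 (4.80 to 7.43). Each of the first 4 differed from the next beyond counting error. Sesn2 and Chac1, and Chac1 and Atf5, did not.

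In the Gars C201R/+ library the top of the order was the same, with Asns at 86.5 RPKM (79.7 to 93.6), Ddit4 at 59.7 (53.8 to 66.1) and Atf4 at 27.7 (23.6 to 32.2). Atf5, last in the wild-type library, came next at 13.5 (10.8 to 16.6). Ddit3 at 8.94 (5.94 to 12.9), Sesn2 at 8.26 (6.72 to 10.0) and Chac1 at 7.46 (5.40 to 10.1) followed. From Atf5 downwards no gene differed from the next beyond counting error. The level of Atf5 per length was 0.171 of that of Atf4 in the wild-type (0.134 to 0.216) and 0.486 of it in the Gars C201R/+ library (0.371 to 0.634). Of all lengths in the tables, 33.7% were multiples of 3, so they are not those of coding sequences alone. Where the untranslated parts were counted, reads on the upstream frames of Atf4, Atf5 and Ddit3 and reads on their main frames fall in the same total.

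**Figure D4:**
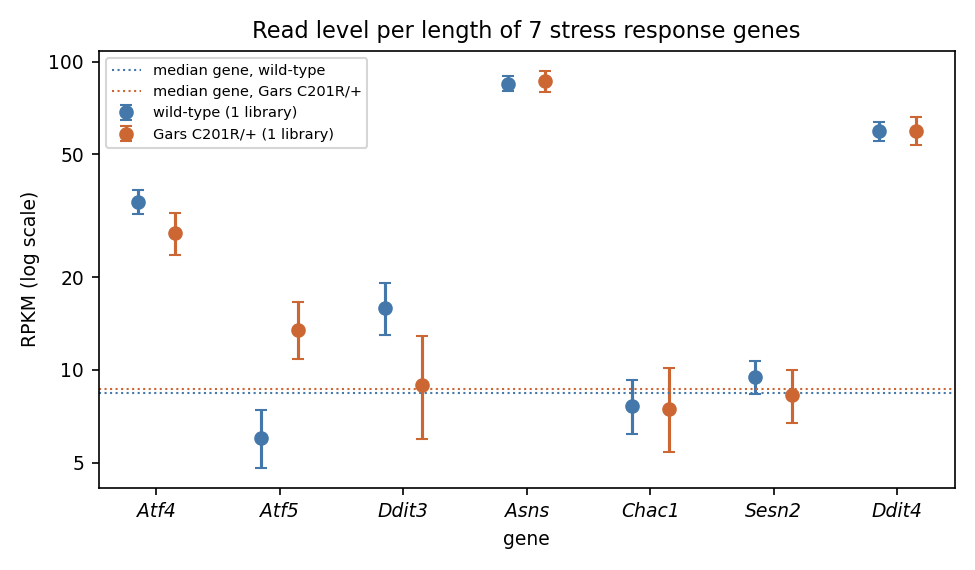
Deposited RPKM (log axis) of the 7 listed genes in the wild-type and the Gars C201R/+ library, 1 library each, with 95% Poisson intervals. Dotted lines mark the median gene of each library (8.40 and 8.63 RPKM). The intervals of the libraries are apart for Atf5 and, narrowly, for Ddit3, and overlap for the other 5 genes, narrowly for Atf4. They cover counting error only, and the share of all genes with intervals apart was not computed.

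The promoters of the 10 genes were read from RefSeq (GRCm38.p6), from 250 bases before to 50 bases after the start. All 10 genes matched by symbol, with 12 starts. They were searched on both strands for TGATGNAA, the core of the C/EBP-ATF response element through which ATF4 dimers act. It was found in 4 of the 10 genes, against 4.51% of the 27025 genes in the table, and in 3.97% of its 32851 promoters. The genes were picked as ATF4 targets, so this share describes the choice of genes. The matches are shown because they set the 2 listed genes with the element beside their ratios. Each sequence is on the strand of its gene, and capitals mark the match (TTNCATCA is the element on the other strand).
Asns, chr6:7693210-7693269, minus strand: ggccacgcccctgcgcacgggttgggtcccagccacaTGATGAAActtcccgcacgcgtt
Chac1, chr2:119351023-119351082, plus strand: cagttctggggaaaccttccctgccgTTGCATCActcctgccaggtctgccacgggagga
Atf3, chr1:191183410-191183469, minus strand: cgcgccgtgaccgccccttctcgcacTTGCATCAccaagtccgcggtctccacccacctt
Trib3, chr2:152344028-152344057, minus strand: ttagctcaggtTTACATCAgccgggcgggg

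The match lies 23 to 16 bases before the start in Asns, 193 to 186 in Chac1 and 110 to 103 in Atf3. In Trib3 it lies after the start, at bases 15 to 22. The 2 listed genes with a match, Asns and Chac1, had ratios of 0.986 and 0.951. Atf5 and Ddit3, which were called, and Atf4, Ddit4 and Sesn2, which were not, had no match in the window. This says nothing of sites elsewhere.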

How the data were processed

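For each library the authors deposited 1 table with, per the file headers, the read count of a gene and its RPKM. Per the submitters' processing notes, the tools included Bowtie 1.2.2 and HTSeq 0.9.1, and the build was GRCm38. Settings, strand and the counted part of a gene are not stated in the sources used here. Counts were used as deposited. The authors' RPKM values gave whole-number gene lengths, equal in both libraries, for totals of 7790126 and 3520348 reads. Library sizes came from TMM in edgeR 4.0.16 under R 4.3.3, over all genes without spike-ins. Log2 ratios used a prior count of 0.5 and Clopper-Pearson intervals, without a prior, at 95%. Reads may not be independent molecules, which no interval allows for. DESeq2 1.42.0 gave an alternative scaling. Python 3.11.15 with scipy 1.17.1 did the rest. The rule for calls was checked on simulated counts that held counting error only. The check therefore does not cover the wider spread between these libraries. Of the identifiers, 0 matched one of the 49997 genes in the RefSeq table, which lists no Ensembl identifiers. The symbols of the 10 genes came with the list of genes, and the pairing was not checked otherwise. All 10 were to be named, listed or not; further pathway genes were to be named where called or most abundant in their list, which was not analysed here. The genes and lists were chosen with earlier results of these data known.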

Additional observations from a re-analysis of the deposited data

Results flagged for a closer look

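The ERCC spike-ins, which lie outside the genes compared, took 0.650% of all listed reads for Gars C201R/+ and 0.00669% for wild-type. Per gene read, 18 of 18 were higher for Gars C201R/+.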

How the results depend on the processing

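Atf5 was called higher, and Ddit3 lower, under TMM, total-count, DESeq2 and upper-quartile scaling, with a 99% interval, without an interval, and with a minimum of 20 reads or none. A prior count of 2 moved no log2 ratio out of its interval. With a 2-fold limit 0 of the 7 genes were lower, and over all genes 166 were higher and 267 lower. Thinning the wild-type library, drawn once, left 0 lower, with 5 of the 7 genes past the minimum. Over all genes, total-count scaling gave 952 higher and 919 lower and upper-quartile scaling 903 and 957, against 792 and 1087. Of the 12160 genes with at least 20 reads, 1321 were higher and 1353 lower, and of all 12530 genes, 1379 and 1353. Scaling to the spike-in reads, chosen after seeing the data, shifts every gene by 1 common factor. It turned Atf5 to -5.43 and gave -6.94 for Atf4, -7.38 for Ddit3, -6.59 for Ddit4, -6.60 for Chac1, -6.58 for Asns and -6.79 for Sesn2. It called 0 genes higher, 7 of the 7 lower and 9726 of all genes lower. The stricter motif TGATGCAA was found in 2 of the 10 genes. Glycine content of the proteins and the further gene lists were not run, for want of sequences and symbols here. No paired analysis was possible because each genotype has 1 library, and no replicate could be left out.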
